A study of Mus musculus with 8 samples.

Results

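The hyaluronan receptor Cd44 and the proteins that build the hyaluronan-based matrix around neurons were examined in astrocytes of the mouse spinal cord with and without the potassium channel Kir4.1. The set held 10 genes, matched by symbol in the authors' gene table and by Ensembl identifier to the count of each library, out of 39179 genes counted. It comprised the receptor Cd44, the hyaluronan synthase Has2, the link protein Hapln1, the lecticans Bcan, Ncan, Vcan and Acan, the tenascins Tnc and Tnr, and the receptor phosphatase Ptprz1. RNA-seq had been made from Aldh1l1-GFP+ astrocytes sorted by flow cytometry from papain-dissociated spinal cords, with the meninges removed, of mice aged 12 to 14 days on a mixed Swiss-Webster background. The 4 control libraries (S1, S2, S6 and S7) came from cre-negative animals, which the labels call wild-type. The 4 conditional knockout (cKO) libraries (S3, S4, S5 and S8) came from animals in which Aldh1l1-cre acts on floxed Kir4.1. Wherever 4 values of a group follow each other, they stand in the order of library numbers just given. Both groups carried the GFP reporter. Aldh1l1 elements thus drove both the reporter by which cells were sorted and the recombinase that deleted the channel gene. The labels call the libraries biological replicates, and how many animals went into each is not given in the sources used here.

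Hyaluronan is a long sugar chain made at the cell membrane by hyaluronan synthases and pushed out into the extracellular space. Lecticans are chondroitin sulfate proteoglycans that bind hyaluronan at one end and tenascins at the other, and link proteins lock the lectican onto the hyaluronan chain. Together these molecules form the diffuse matrix of the central nervous system and, around certain neurons including spinal motor neurons, the condensed coats called perineuronal nets. Astrocytes and cells of the oligodendrocyte lineage secrete a large part of it, and CD44 is a cell surface receptor through which astrocytes bind hyaluronan.

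Reads assigned to genes numbered 13892736 to 25065686 per library, and 17312 to 20470 genes were detected. Of these reads, 32.6% to 44.4% per library fell on ribosomal RNA and transcripts like it. The targeted gene Kcnj10, which encodes Kir4.1, was at 1181, 2306, 1856 and 1937 CPM (gene reads scaled to a common depth) in the controls against 35.6, 27.2, 37.6 and 35.4 CPM in the cKO, so no label was contradicted. The 12 astrocyte markers were detected in each library, with a summed level of 16980 to 25060 CPM in controls and 19761 to 24255 CPM in cKO. Of the 12, 2 rose, Aldh1l1 (131 to 151 CPM in controls, 244 to 350 CPM in cKO, log2 fold change 1.01, edgeR adjusted p 0.0179) and the water channel gene Aqp4 (log2 fold change 1.09, edgeR adjusted p 0.0243), and Aldh1l1 is the gene whose elements drove reporter and cre. The part of this in the values of the members was not tested. Endothelial markers summed to 43.3 to 70.03 CPM in controls against 23.3 to 56.5 in cKO, and ependymal markers to 8.81 to 32.7 against 9.46 to 33.9. Mural cell markers summed to 119 to 158 CPM against 76.3 to 118, the one summed list whose groups did not overlap. Of these 8 mural markers, 7 had a lower mean in cKO and 0 passed the threshold. Notch3, Pdgfrb and Cspg4, the last also a precursor marker, held most of the sum. Acta2, Vtn and Kcnj8 were at 0 in some libraries. Across the 14757 genes that passed the filter on low counts, edgeR's quasi-likelihood test gave 47 genes (0.318%) an adjusted p under 0.05, 30 of them higher in cKO and 17 lower. Leaving out cKO S4 left 4 such genes.

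Of the 10 genes, 9 passed the filter, and 2 of these 9, Cd44 and Hapln1, rose in cKO at an adjusted p under 0.05, where 0.203% of all genes tested did so, and 0 fell, where 0.115% did. Those 2 were also the members whose cKO libraries all lay above all controls, as 3.39% of all genes did. None lay wholly below, as 2.94% of all genes did, and 6.34% of all genes were apart in one direction or the other. At an unadjusted p under 0.05 (9.81% of all genes) there was 1 more member, Vcan, on the lower side, where 4.77% of all genes stood, against 5.03% on the higher side. The 95% intervals of the remaining 6 tested members included 0. The median log2 fold change of the 9 was −0.22, against −0.017 for all genes tested. Acan was too low to be tested. The members were chosen with earlier results of these data known, so these counts and shares describe the set and do not test it.

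**Figure D1:**
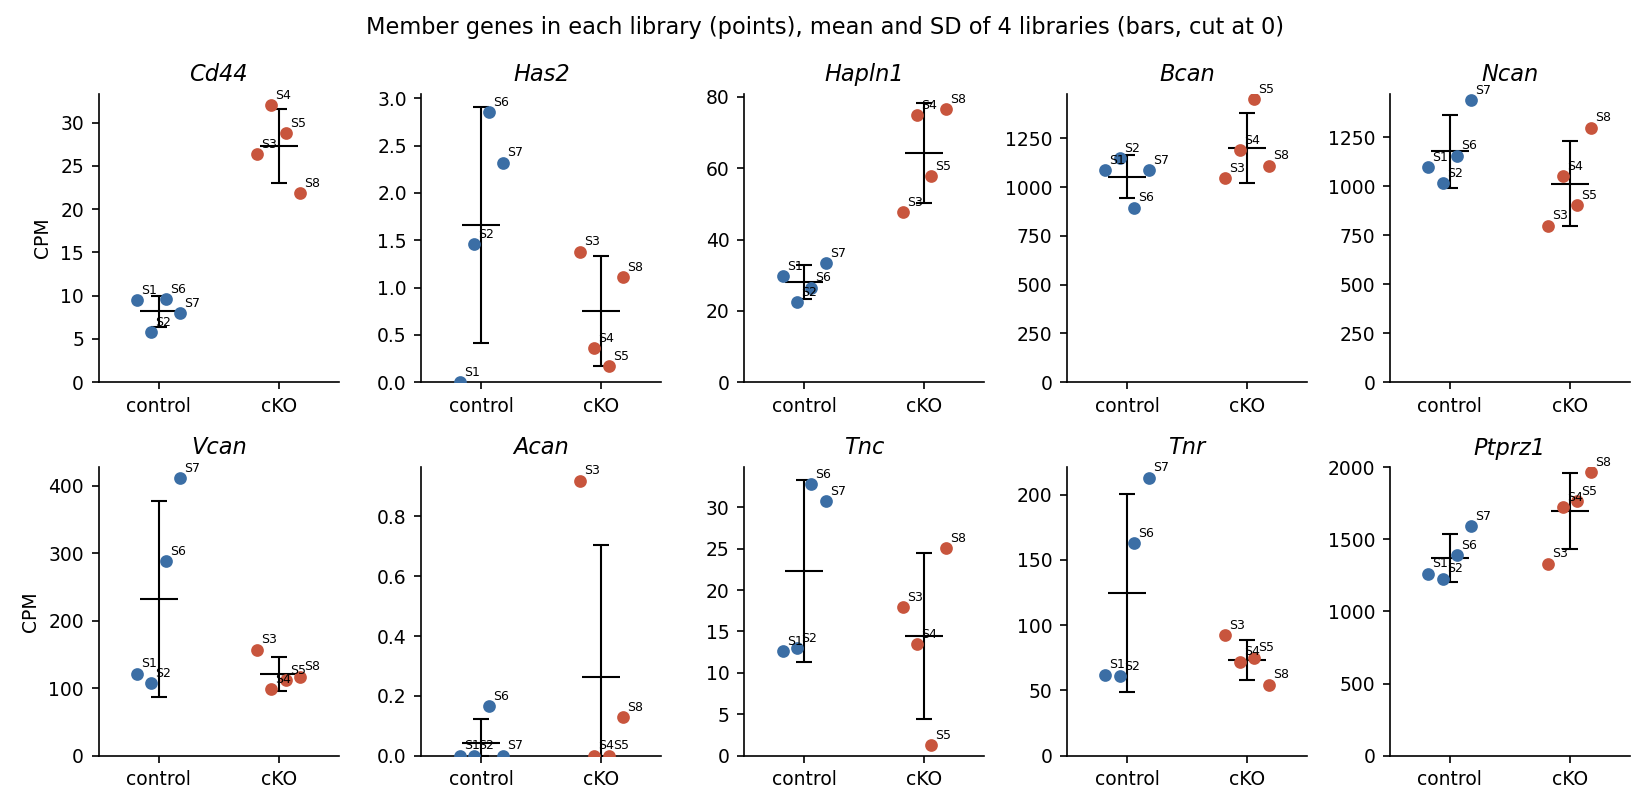
Level of each of the 10 genes in CPM (vertical axes, each from 0) in the 4 control and 4 cKO libraries, with 1 labelled point per library and bars for the group mean and SD (cut at 0). Cd44 and Hapln1 have every cKO point above every control point, while Vcan and Tnr are high in control S6 and S7 and lower in the other 6 libraries.

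Cd44 encodes the membrane receptor CD44, whose outer domain binds hyaluronan and whose inner tail links to the actin cytoskeleton through ezrin, radixin and moesin. It lies on chromosome 2 (chr2:102811141-102901665, minus strand, GRCm38), with 19 exon blocks and 9 annotated transcripts that the gene counts do not separate. The library counts were 150, 79, 175 and 168 in the controls against 517, 707, 506 and 511 in the cKO libraries. Scaled to depth these were 9.51, 5.75, 9.61 and 7.96 CPM in controls and 26.4, 32.1, 28.8 and 21.9 CPM in cKO. The lowest cKO library, S8, was well above the highest control library, S6.

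Cd44 rose in cKO, with a mean of 8.21 CPM ± 1.80 over the controls and 27.3 CPM ± 4.30 over the cKO libraries (SD, n = 4 each). The fitted log2 fold change was 1.73, standard error 0.26, with a 95% interval of 1.17 to 2.29, a 3.32-fold rise (2.25 to 4.90). By edgeR's quasi-likelihood test this gave 0.0144 as adjusted p, and the gene ranked 15 of 14757 by p. The call was lost when control S2 was left out (adjusted p from the same edgeR test 0.0583), when cKO S4 was left out (0.0751), and with limma on the deposited FPKM (0.141 and 0.166 with pseudocounts of 1 and 0.1). In the authors' deposited table Cd44 had a log2 fold change of 1.56 and an adjusted p of 1.99e-09, in a comparison where 1.49% of 12314 genes were called higher. That fold change is nearer 0 than the authors' own group means, 151 and 501 scaled counts, would give. It is thus not on the same footing as the 1.73 given above. Markers of microglia and macrophages, other cells that express Cd44, summed to 28.6 to 46.1 CPM in controls and 29.4 to 61.1 CPM in cKO. Of these 10 markers, 6 had a higher mean in cKO, 0 passed the threshold, and Tmem119 and Aif1 were at 0 in some libraries. Their part in the Cd44 values was not tested.

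The bases before the RefSeq start of Cd44 are shown because this gene had the largest fold change of the set, and those of Vcan because it is the lectican next to Hapln1 on the chromosome. Each line gives 250 bases upstream of the start, 5′ to 3′ on the gene's own strand, from RefSeq on GRCm38.p6 (chr2:102901666-102901915, minus strand, for Cd44 and chr13:89742513-89742762, minus strand, for Vcan), with matches to the GC box in capitals.
Cd44: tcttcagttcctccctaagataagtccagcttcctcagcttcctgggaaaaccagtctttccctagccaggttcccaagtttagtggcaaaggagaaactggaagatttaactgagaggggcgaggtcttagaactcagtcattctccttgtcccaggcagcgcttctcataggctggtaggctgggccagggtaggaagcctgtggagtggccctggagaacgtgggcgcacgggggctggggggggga
Vcan: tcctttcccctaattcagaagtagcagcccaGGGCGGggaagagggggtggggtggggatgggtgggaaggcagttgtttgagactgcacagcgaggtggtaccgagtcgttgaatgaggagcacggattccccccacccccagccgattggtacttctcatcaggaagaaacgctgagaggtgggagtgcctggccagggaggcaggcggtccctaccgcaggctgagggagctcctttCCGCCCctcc

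Both strands of such windows were searched for 5 motifs, the TATA box (TATAAA), the GC box (GGGCGG), the AP-1 site (TGANTCA), the E box (CACGTG) and the STAT site (TTCNNNGAA). The Cd44 window held 0 matches to any of them and 5 CpG dinucleotides, with a GC content of 56.4%. The Vcan window held 2 GC boxes, at 219 to 214 and 10 to 5 bases before the start, and 10 CpG dinucleotides, with a GC content of 62.4%. Over 32817 windows of this length the share with a match was 12.4% for the TATA box, 32.7% for the GC box, 6.75% for the AP-1 site, 6.02% for the E box and 7.02% for the STAT site, and the median number of CpG dinucleotides was 6. The table held windows for 9 of the 10 genes. In the annotation used, the window of Hapln1 lies in an exon, and its letters are not shown.

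Has2 encodes hyaluronan synthase 2, which makes long hyaluronan chains. It was barely detected, with 0, 20, 52 and 49 counts in the controls against 27, 8, 3 and 26 counts in the cKO libraries. The zero in control S1 allows up to 0.190 CPM at 3 counts, for counting error only, whereas the other 3 controls were at 1.46 to 2.86 CPM. The cKO libraries lay between 0.171 and 1.38 CPM, within the range of the controls. For Has2 the log2 fold change was −1.13, standard error 1.07, and the 95% interval of −3.44 to 1.18 leaves the direction unset (adjusted p 0.785 in edgeR's quasi-likelihood test). Has2 shares 182 exon bases with the antisense gene Has2os, and without strand information reads over them cannot be assigned to either.

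The list of hyaluronan synthesis and turnover, Has2 included, gave no call. Among 12 tested of 13 listed, edgeR's quasi-likelihood test called 0, and 0 reached an unadjusted p under 0.05, which 9.81% of all genes tested did. DESeq2 and limma-voom gave 0 calls in this list too. The most abundant of them per kilobase of exon were Hyal1, a lysosomal hyaluronidase, at 15.6 CPM ± 6.42 in controls against 18.04 CPM ± 8.24 in cKO (SD, n = 4 each), and Tmem2, a cell surface hyaluronidase, at 26.8 CPM ± 12.5 and 31.3 CPM ± 5.21. The other synthases, Has1 and Has3, looked up after the values were seen, were also low, at 1.14 CPM ± 1.30 and 3.38 CPM ± 1.32 in controls (SD, n = 4 each).

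Hapln1 encodes the link protein HAPLN1, which joins a lectican to hyaluronan and stabilises the complex. It lies on chromosome 13 (chr13:89539796-89611652, plus strand, GRCm38), 43.7 kb from Vcan on the opposite strand with no protein-coding gene between them. The counts were 470, 308, 483 and 706 in the controls, or 29.8, 22.4, 26.5 and 33.4 CPM. They were 935, 1651, 1012 and 1790 in the cKO libraries, or 47.8, 74.9, 57.7 and 76.6 CPM. All 4 cKO libraries were above all 4 controls, with cKO S3 the nearest to them.

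Hapln1 rose in cKO, with a mean of 28.04 CPM ± 4.69 over the controls and 64.2 CPM ± 13.9 over the cKO libraries (SD, n = 4 each). The fitted log2 fold change was 1.19, standard error 0.21, with a 95% interval of 0.74 to 1.65, a 2.29-fold rise (1.67 to 3.14). By edgeR's quasi-likelihood test this gave 0.0344 as adjusted p. The adjusted p was above 0.05 in 6 of the 8 fits that left out 1 library, those without control S1 (0.0898), control S2 (0.105), control S6 (0.101), cKO S4 (0.157), cKO S5 (0.0655) and cKO S8 (0.116), and with limma on the deposited FPKM (0.149 and 0.166 with pseudocounts of 1 and 0.1), while the log2 fold change stayed between 1.10 and 1.32 in these 8 fits. In the authors' deposited table Hapln1 had a log2 fold change of 1.09 and an adjusted p of 3e-05. As for Cd44, that fold change is nearer 0 than the authors' group means, 516 and 1180 scaled counts, would give. The control and cKO libraries did not overlap in the deposited FPKM either.

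Each lectican gene has a link protein gene beside it in the mouse genome. Hapln2 lies 21.5 kb from Bcan on chromosome 3, Hapln4 2.22 kb from Ncan on chromosome 8 and Hapln3 within 2 bases of Acan on chromosome 7, again with no protein-coding gene between. Hapln4, a link protein of perineuronal nets, was at 0.507, 0.218, 0.659 and 1.85 CPM in the controls against 3.58, 2.09, 10.1 and 4.97 CPM in the cKO libraries. The groups did not overlap, but at such low levels its log2 fold change of 2.65 (standard error 0.74) did not pass in edgeR (adjusted p 0.206), while DESeq2 gave 0.0121. The log2 fold change of Hapln4 was 3.47 without control S7, 2.11 without cKO S5 and 1.07 on log2(FPKM + 1). Neuronal markers had their highest summed level, 98.8 CPM, in cKO S5, where Hapln4 was also highest. In cKO S3, S4 and S8 they summed to 40.5, 47.2 and 42.1 CPM, below the control range of 71.04 to 91.6 CPM. Of the 11 neuronal markers, 4 had a higher and 7 a lower mean in cKO. Their order over the libraries differed. Slc6a5, Nefm and Nefl were highest in cKO S5 (21.5, 20.4 and 18.1 CPM). Snap25 and Gad2 were highest in control S7 (40.0 and 27.0 CPM), and Stmn2 and Rbfox3 in control S6 (8.46 and 4.94 CPM). The part of neurons in the Hapln4 values was not tested. Hapln2 was at 2.82 CPM ± 2.05 in controls against 1.95 CPM ± 1.46 in cKO (SD, n = 4 each), and Hapln3 had too few reads to be tested. In bulk libraries such as these, more cells of a type and more RNA per cell cannot be told apart.

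**Figure D2:**
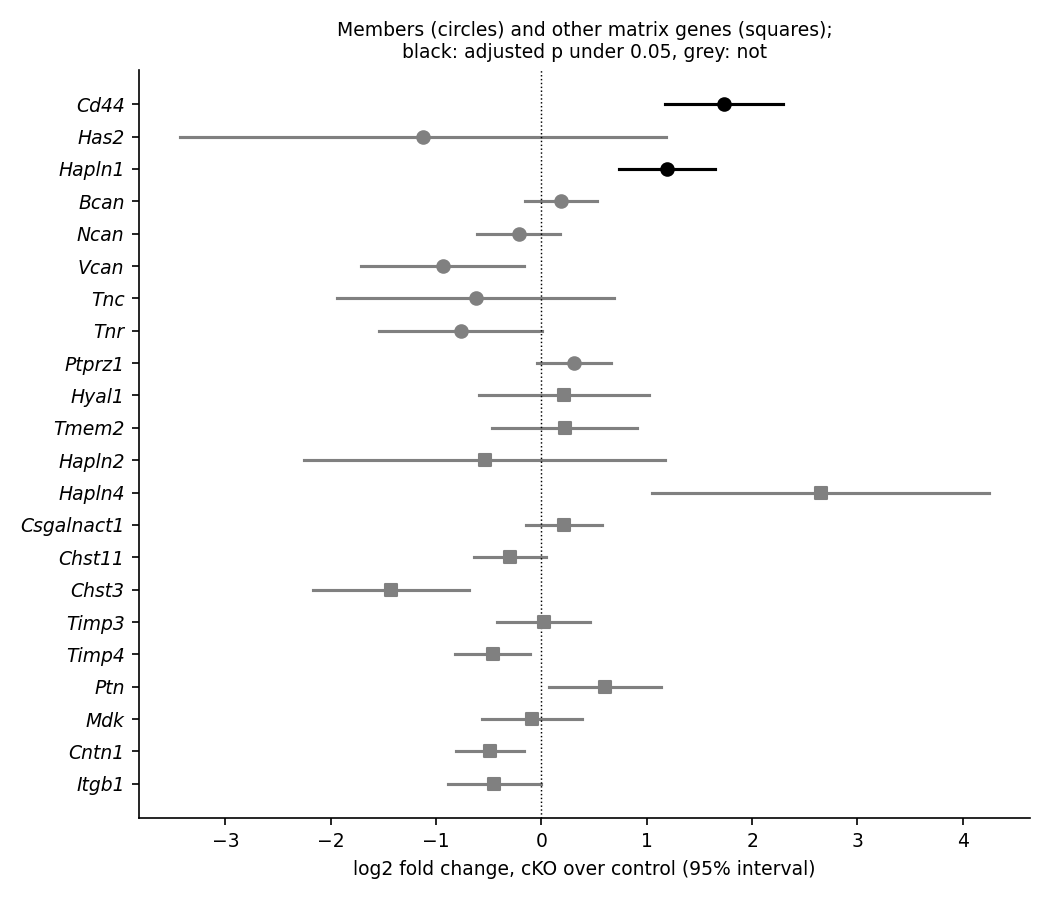
Log2 fold change of cKO over control (horizontal axis) with its 95% interval from edgeR's quasi-likelihood fit for the 9 tested members (circles) and 13 other matrix genes named by rule (squares). Cd44 (1.73) and Hapln1 (1.19) are drawn in black because their adjusted p was under 0.05, and the remaining genes in grey did not pass.

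Brevican (Bcan) and neurocan (Ncan), lecticans restricted to the nervous system, were the most abundant lecticans and did not pass the test. Bcan was at 1088, 1147, 896 and 1089 CPM in the controls against 1046, 1189, 1453 and 1111 CPM in the cKO libraries. Apart from cKO S5, the cKO libraries fell within or just above the control range. Its log2 fold change was 0.19 with a 95% interval of −0.15 to 0.52, so a rise above 1.44-fold or a fall below 0.899 of the control lies outside the interval.

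Ncan was at 1098, 1016, 1157 and 1441 CPM in the controls against 799, 1052, 904 and 1300 CPM in the cKO libraries. The highest and the lowest library came from different groups, but the ranges overlapped widely. The log2 fold change was −0.22 with a 95% interval of −0.61 to 0.18, and edgeR gave an adjusted p of 0.751, against 0.754 for Bcan. The authors' deposited table gave the same directions, with log2 fold changes of 0.17 for Bcan and −0.21 for Ncan.

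Versican (Vcan), a large lectican with several splice forms, varied widely between the control libraries. It was at 121 and 108 CPM in control S1 and S2, at 288 and 412 CPM in control S6 and S7, and at 157, 98.7, 112 and 117 CPM in the cKO libraries. Its highest control library was 3.83 times the lowest, where the median gene with a mean of at least 10 CPM had a ratio of 1.69 over the controls. The cKO libraries spanned 1.59 times, like the median gene over the cKO libraries (1.59), and lay close to control S1 and S2. For Vcan the log2 fold change was −0.94, standard error 0.36, with a 95% interval of −1.72 to −0.16. In edgeR the unadjusted p of 0.0216 became 0.402 after adjustment, and an exact 2-sided permutation test of the 8 libraries gave 0.257. The smallest p that this permutation test can give with 4 libraries against 4 is 0.0286, the value of Cd44 and Hapln1. Without control S7 the log2 fold change of Vcan was −0.50.

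Aggrecan (Acan), the lectican most typical of perineuronal nets, was nearly absent from these cells. It had 0, 0, 3 and 0 counts in the controls against 18, 0, 0 and 3 counts in the cKO libraries. Most of its 21 cKO reads came from S3, so a fold change would rest on 1 library and is not given.

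Levels of different genes can be compared only per length, here as CPM per kilobase of annotated exon. Summed on that scale, the 4 lecticans were at 439 ± 40.5 in controls against 444 ± 47.2 in cKO (SD, n = 4 each). Bcan made up 59.2% ± 5.66 of the sum in controls and 66.4% ± 5.67 in cKO, Ncan 37.2% ± 3.67 and 31.7% ± 5.75, and Vcan 3.60% ± 2.05 and 1.93% ± 0.629. All 3 shares overlapped between the groups. On the deposited FPKM the Vcan share was 11.1% in controls and 7.49% in cKO. Hapln1, in contrast, was at 1.18, 0.882, 1.12 and 1.14 per 100 of the lectican sum in the controls against 2.13, 2.85, 1.99 and 2.81 in the cKO libraries. The ratio of link protein transcript to lectican transcript was thus above all controls in all 4 cKO libraries. With similar lectican sums in the 2 groups, this restates the rise of Hapln1. It is a description and carries no test. The ratio of Hapln1 to its neighbour Vcan ranged from 0.199 to 0.601 in controls and from 0.745 to 1.86 in cKO. In controls it was lowest in S6 and S7 (0.226 and 0.199), where Vcan was highest. The size of this ratio depends on the measure of level. In the deposited FPKM the group means of Hapln1 and Vcan were 6.74 and 85.8 in controls and 16.1 and 53.4 in cKO.

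The tenascins are multi-armed glycoproteins that cross-link lecticans, Tnr being the form of mature perineuronal nets and Tnc a form of developing and reactive tissue. Tnr was at 62.2, 61.2, 163 and 213 CPM in the controls against 92.2, 72.03, 75.2 and 54.4 CPM in the cKO libraries. As for Vcan, control S6 and S7 were the highest of the 8 libraries and control S1 and S2 lay among the cKO values. For Tnr the log2 fold change was −0.77, standard error 0.36, and its 95% interval ran from −1.54 to 0.0062 (adjusted p 0.515 in edgeR's quasi-likelihood test). Without control S7 it was −0.37.

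Tnc was at 12.6, 13.0, 32.8 and 30.7 CPM in the controls against 17.9, 13.5, 1.25 and 25.1 CPM in the cKO libraries. Control S6 and S7 were again the highest 2 libraries, and cKO S5 was far below the others, with 22 counts. The log2 fold change of −0.63 had a standard error of 0.61 and a 95% interval of −1.94 to 0.69, and without cKO S5 it was −0.24. Tnc shares 176 exon bases with the opposite-strand gene 8030451A03Rik, which was counted. Tnr shares 443 with another annotated gene, which was not among the genes counted.

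Control S6 and S7 also held the highest summed level of markers of oligodendrocyte precursors, a cell type that makes Vcan and Tnr. The summed level of 8 such markers was 816, 621, 990 and 1622 CPM in the controls against 806, 686, 846 and 699 CPM in the cKO libraries. Of the 8, 6 had a lower mean in cKO, 0 passed the threshold, and none was at 0 in any library. Single markers differed in their order over the libraries. Gpr17 was highest in control S6 and S7 (477 and 751 CPM), but Olig2 was lowest in control S6 (80.8 CPM) and Olig1 highest in cKO S5 (469 CPM). The 10 oligodendrocyte markers, all with a lower mean in cKO, summed to 1480 to 2950 CPM in controls and 983 to 2413 CPM in cKO. Pdgfra, the growth factor receptor among the precursor markers, was at 14.9, 9.17, 38.8 and 71.95 CPM in the controls. In the cKO libraries Pdgfra was at 32.1, 3.04, 15.05 and 10.3 CPM. The markers of fibroblasts and meninges, which also include Pdgfra, were highest in control S6 at 648 CPM, against 124 to 251 CPM in the other controls and 79.1 to 187 CPM in cKO. Of these 8 markers all had a lower mean in cKO, and Col3a1, Dcn, Lum and Slc6a13 were at 0 in some libraries. The part of these cell types in the values of Vcan, Tnr and Tnc was not tested.

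**Figure D3:**
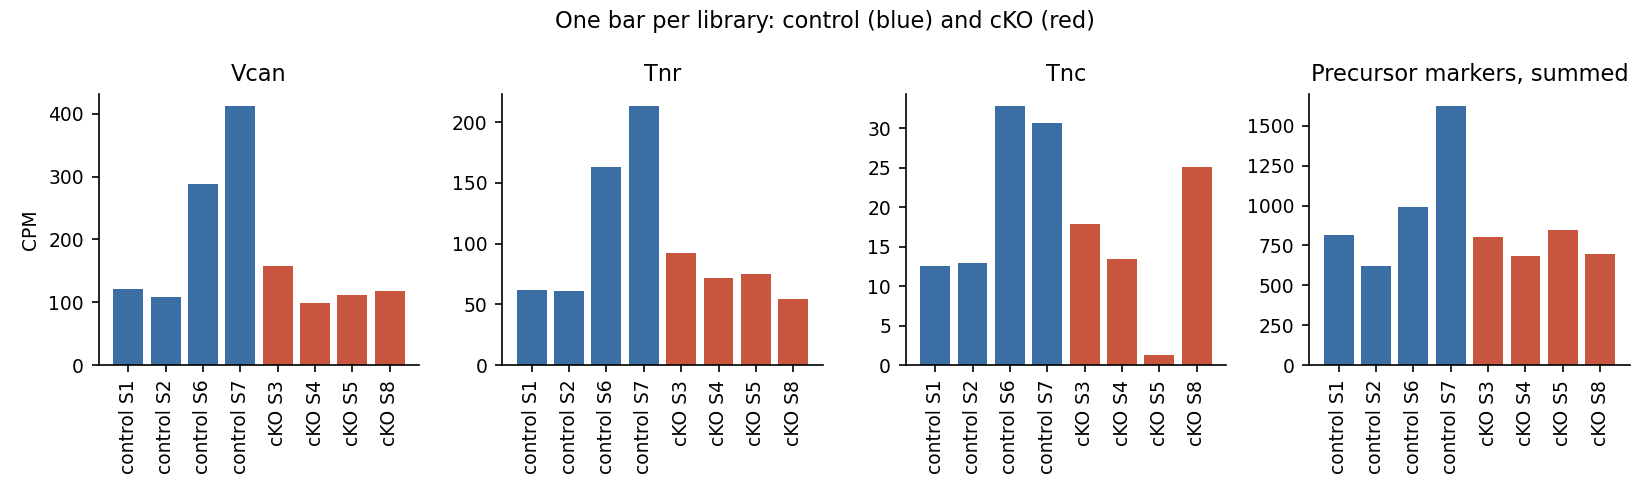
Level in CPM (vertical axes from 0) of Vcan, Tnr, Tnc and the summed oligodendrocyte precursor markers, with 1 bar per library, controls in blue and cKO in red. Control S6 and S7 are the 2 highest bars in each of the 4 panels.

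Ptprz1 encodes a receptor tyrosine phosphatase whose secreted form, phosphacan, is a chondroitin sulfate proteoglycan that binds tenascins, contactin and the growth factors pleiotrophin and midkine. It was at 1261, 1226, 1390 and 1592 CPM in the controls against 1331, 1725, 1765 and 1962 CPM in the cKO libraries. The cKO libraries S4, S5 and S8 were above all controls, while S3 lay among them. Its log2 fold change was 0.31, standard error 0.16, with a 95% interval of −0.043 to 0.66 (adjusted p 0.562 in edgeR's quasi-likelihood test, exact 2-sided permutation p 0.0857). The gene counts do not separate the receptor from phosphacan.

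The ligands and receptors of these proteoglycans gave 0 calls among 18 tested of 24 listed in edgeR's quasi-likelihood test, while DESeq2 called 1, Cntn1, and limma-voom 0. An unadjusted p under 0.05 was found in 4, 2 higher and 2 lower, against 9.81% of all genes tested. Ptn, which encodes pleiotrophin, was at 492, 438, 740 and 846 CPM in the controls against 675, 827, 1322 and 998 CPM in the cKO libraries. Its log2 fold change was 0.60 (adjusted p 0.435 in edgeR), and 2 controls lay within the cKO range. Cntn1, a contactin bound by PTPRZ1, was at 286 to 330 CPM in controls and 185 to 244 CPM in cKO, without overlap. Its log2 fold change was −0.49 (standard error 0.15), with an adjusted p of 0.254 from edgeR and 0.0489 from DESeq2. Itgb1, the shared beta subunit of many matrix-binding integrins, was at 131 to 153 CPM in controls and 62.9 to 124 CPM in cKO, with an adjusted p of 0.501 from edgeR. Cntn1 and Itgb1 were named by a rule that asked for groups without overlap, so their separation was fixed by the choice. Of all genes tested, 2.94% lay wholly below the controls. Mdk, which encodes midkine, was at 75.1 CPM ± 14.7 in controls against 70.7 CPM ± 20.5 in cKO (SD, n = 4 each).

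Per kilobase of exon, the members fell into a few tiers in both groups. In controls Bcan stood highest at 260 ± 27.0, followed by Ncan at 164 ± 25.7 and Ptprz1 at 95.99 ± 11.6 (CPM per kilobase, SD, n = 4), and the ranges of these 3 did not overlap. Vcan at 16.1 ± 10.04, Tnr at 9.71 ± 5.89 and Hapln1 at 4.75 ± 0.795 came next, then Tnc at 2.87 ± 1.41 and Cd44 at 1.21 ± 0.266. From Vcan to Tnc each gene overlapped its neighbour, and Tnc did not overlap Cd44. Has2 (0.391 ± 0.294) and Acan (0.0055 ± 0.011) were last.

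In cKO Bcan was again first at 295 ± 43.96, and Ncan at 141 ± 30.2 overlapped Ptprz1 at 119 ± 18.6. Hapln1, below Vcan and Tnr in controls, came next at 10.9 ± 2.36, with a range that overlapped that of Vcan at 8.39 ± 1.74. Tnr at 5.71 ± 1.21 overlapped both Vcan and Cd44 at 4.03 ± 0.634. Cd44 stood above Tnc at 1.86 ± 1.29, the lowest library of the former and the highest of the latter both being at 3.23. Parts of this order depend on how length is counted. With the longest transcript in place of all exons Ptprz1 stood above Ncan in both groups, at 169 and 164 in controls and at 210 and 141 in cKO. In the deposited FPKM, Hapln1 remained below Vcan in cKO, at group means of 16.1 and 53.4.

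**Figure D4:**
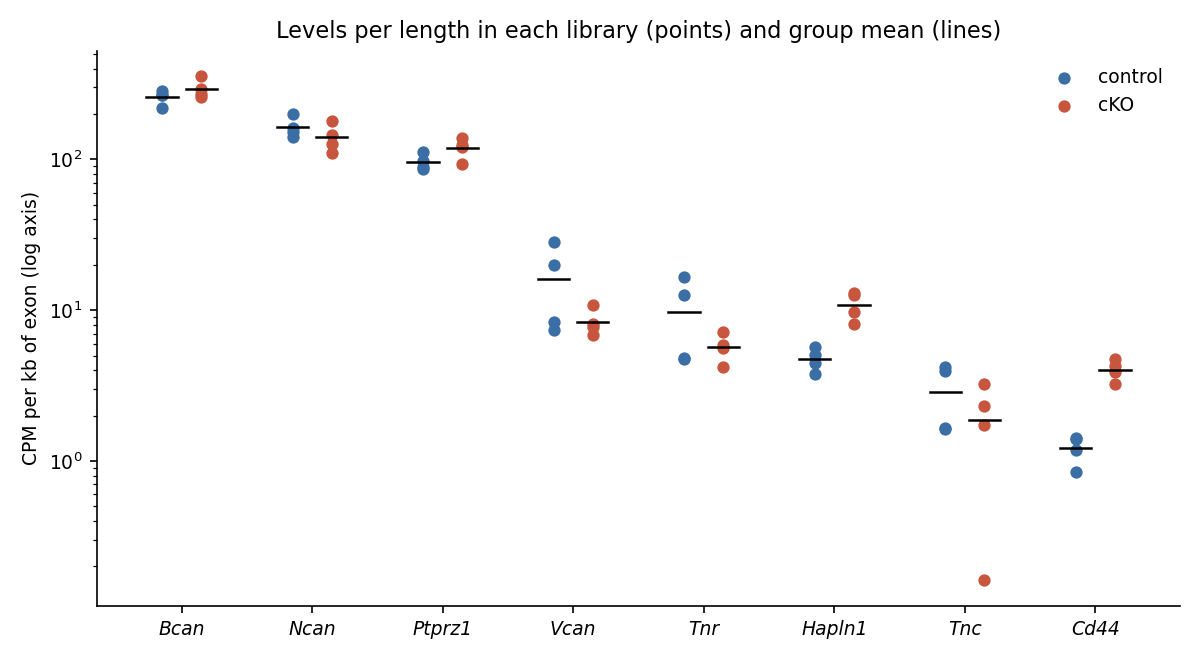
Level per length, in CPM per kilobase of exon on a log axis, of 8 members ordered by their control mean, with 1 point per library (control blue, cKO red) and a line at each group mean. Has2 and Acan are left out because some of their libraries are at 0, and the cKO points of Hapln1 and Cd44 are the ones that lie wholly above their control points.

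The enzymes that build chondroitin sulfate, the sugar chains of the lecticans and of phosphacan, gave 0 calls among 19 tested of 22 listed in edgeR's quasi-likelihood test. DESeq2 called 1, Chst3, and limma-voom 0. At an unadjusted p under 0.05 there were 3, 1 higher and 2 lower, where 9.81% of all genes tested stood, and the median log2 fold change was −0.30, against −0.017 for all genes tested. Chst3, which adds sulfate to the 6-position of chondroitin, was at 23.2, 19.6, 24.99 and 33.3 CPM in the controls against 9.45, 15.6, 7.69 and 4.84 CPM in the cKO libraries. All cKO libraries were below all controls, as for 2.94% of all genes tested. Chst3 was named by a rule that asked for such separation, which therefore adds no support. Chst3 thus stood at a log2 fold change of −1.43 (standard error 0.34), which missed the threshold in edgeR (adjusted p 0.131) and passed it in DESeq2 (0.00565). Chst11, which sulfates the 4-position, was at 78.7 to 105 CPM in controls and 65.6 to 81.3 CPM in cKO, and Csgalnact1, which starts the chain, at 74.8 CPM ± 11.1 and 86.8 CPM ± 10.02 (SD, n = 4 each). Neither passed, at log2 fold changes of −0.30 and 0.22 (edgeR, adjusted p 0.562 and 0.722).

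Matrix proteases and their inhibitors, which cut lecticans or restrain that cutting, gave 0 calls among 15 tested of 18 listed in edgeR's quasi-likelihood test, and 0 by DESeq2 or limma-voom. At an unadjusted p under 0.05 there were 2, both lower, where 4.77% of all genes tested were lower at that p. The most abundant per kilobase were the inhibitors Timp4, at 247 CPM ± 44.5 in controls and 179 CPM ± 18.01 in cKO, and Timp3, at 328 CPM ± 69.7 and 333 CPM ± 84.2 (SD, n = 4 each). The log2 fold change of Timp4 was −0.46 with a 95% interval of −0.82 to −0.10 and an adjusted p of 0.365 from edgeR. The lectican-cutting enzymes Adamts4 and Adamts5 were at 20.2 CPM ± 10.5 and 27.8 CPM ± 9.87 in controls and 23.6 CPM ± 16.1 and 32.2 CPM ± 5.98 in cKO (SD, n = 4 each), and were named after their values were seen.

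**Figure D5:**
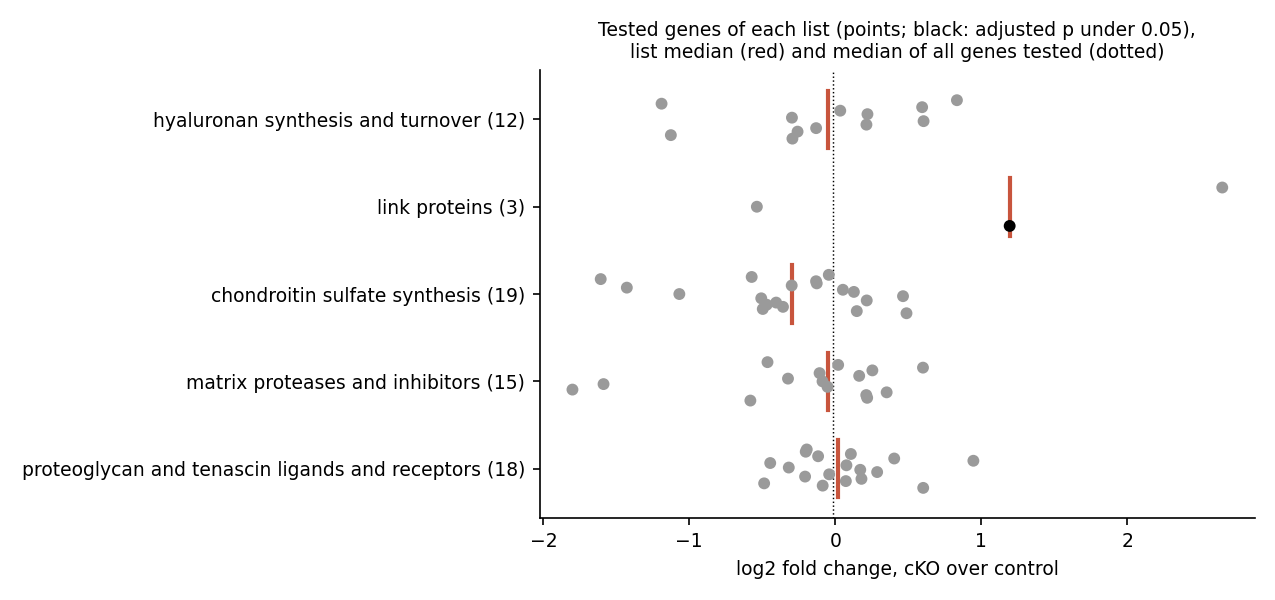
Log2 fold change of cKO over control (horizontal axis) for each tested gene of 5 lists (points, with the number tested in brackets), the list median (red) and the median of all genes tested (dotted). Hapln1 is the black point, and no other gene of the lists passed the adjusted threshold.

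The profile of Cd44 over the 8 libraries was compared with that of 7879 genes at a mean of at least 10 CPM, as the root mean square difference of log2 CPM after each gene was centred on its own mean. Among the nearest were Slc38a1, an amino acid transporter (0.265), and Retreg1, a receptor for turnover of the endoplasmic reticulum (0.330). Hapln1 was at place 15 with 0.417. Slc38a1 rose by 2.17 on the log2 scale (edgeR, adjusted p 0.000235). Retreg1, with a log2 fold change of 1.26, did not pass in edgeR (0.135) and passed in DESeq2 (0.00617). Both were picked from these same libraries for a profile like that of Cd44. Their higher level in cKO was therefore fixed by the choice, and the p-values add no support.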

How the data were processed

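The authors deposited a table of raw counts per library for 39179 Ensembl genes, for which the submitters' processing notes name TopHat2 2.0.11, Bowtie2 2.2.3 and HTSeq 0.6.1p1 on GRCm38; annotation release and strand setting are not given in the sources used here. The 5 summary lines, 56.4% to 61.7% of reads, were left out. Each deposited FPKM column was matched to the count library it followed best over 13791 genes: 3 of 8 followed their namesake and 8 a library of their own group, so FPKM was used by group only. The authors' DESeq2 table, per the file headers, holds group means of scaled counts (a signal), log2 fold changes, standard errors and Wald statistics (scores) and p-values. Read totals set the counting precision.

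Counts were tested with edgeR 4.0.16 in R 4.3.3 (TMM, filterByExpr, no covariate, Benjamini-Hochberg over 14757 genes), checked on simulated counts. Standard errors came from the F statistic. Alternatives used DESeq2 1.42.0, limma 3.58.1, other scalings, filters, length measures and left-out libraries. Coordinates and exon lengths are from GENCODE M21 on GRCm38, promoters from RefSeq on GRCm38.p6, and figures from matplotlib 3.10.9. The members and gene lists were chosen with earlier results of these data known. List genes were named if called, if among the 2 most abundant per length, or, up to 3 a list, if at an unadjusted p under 0.05 with groups apart. Markers of astrocytes, oligodendrocyte precursors, oligodendrocytes, neurons, microglia, endothelial, mural and ependymal cells and fibroblasts were summed per library. Of the genes nearest in profile to Cd44, 1 is not reported here.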

Additional observations from a re-analysis of the deposited data

Results flagged for a closer look

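Among 50 groups of 4 libraries examined (25 genes), 2 held a library that stood apart from the other 3, where 2.5 are expected by chance. Has2 was at 0 CPM in control S1, against 1.46 to 2.86 CPM in the other controls. Itgb1 was at 62.9 CPM in cKO S5, against 115 to 124 CPM in the other cKO libraries.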

How the results depend on the processing

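Against 47 genes past the threshold, keeping genes with 1 or more counts anywhere gave 87, asking for 10 or more throughout gave 84, DESeq2 384, limma on log2(FPKM + 0.1) and log2(FPKM + 1) 8 and 7, and Xist above or below 10 CPM as a covariate 28. Leaving out 1 library gave 4 to 45, lowest without cKO S4, and 14 without control S2, 16 without control S6, 24 without cKO S5, 28 without cKO S8 and 30 without control S1. Library totals without composition factors gave 62, of which 48 were higher and 14 lower, and moved the median log2 fold change of all genes by 0.11; Cd44 and Hapln1 passed there too. Cd44 had log2 fold changes of 1.60 to 1.82 with 1 library left out, 1.76 and 1.54 on the FPKM with pseudocounts of 0.1 and 1, and Hapln1 1.10 to 1.32, 1.23 and 1.13. In the 18 alternatives each kept its direction, and Cd44 lost its call in 4 and Hapln1 in 8. Bcan, Ncan, Vcan, Tnc, Tnr and Ptprz1 kept direction and stayed short of the threshold in 18 alternatives each and Has2 in 17. Signs turned for Hyal1 (−0.45 and −0.42 on the FPKM, −0.087 to 0.49 with 1 library left out), Tmem2 (−0.027 to 0.44 with 1 library left out), Hapln2 (0.089 on log2(FPKM + 1), −1.08 to 0.048 with 1 library left out), Timp3 (−0.044 with Xist as a covariate, −0.15 to 0.15 with 1 library left out) and Mdk (0.014 with library totals, −0.28 to 0.048 with 1 library left out), and none of these 5 was called in any setting; the cause was not tested. No paired analysis was possible because the groups share no replicate number.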
